A study of Rattus norvegicus with 4 samples.

Results

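Uridine and cytidine are salvaged or broken down in the liver by a small set of enzymes, and 8 genes for these enzymes were examined in the livers of anesthetized rats: *Upp1*, *Upp2*, *Uck1*, *Uck2*, *Cda*, *Dpyd*, *Dpys*, and *Upb1*. They were taken by gene symbol out of 16992 annotated genes, and all 8 were listed in the files. The group was selected on measured values in one respect, because *Upp2* was chosen for its higher level after desflurane in these same libraries, and the other 7 genes were added for their place in the pathway. The difference of *Upp2* between the desflurane library and its control is therefore given as a description.

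The samples were the left lateral liver lobes of 4 wild type male Wistar rats, which were 6 weeks old when obtained. They had been kept without food and water for 2 hours before the experiment. All were sacrificed at a similar time of day. One rat inhaled 4.5% sevoflurane for 6 h and another inhaled 6% desflurane for 6 h. Each agent had its own control rat, which inhaled the same agent only until it lost consciousness. The 6 h rats thus spent 6 h under anesthesia after the 2 hours without food, and the controls did not. A longer time without food cannot therefore be told apart from the agent. With 1 library per condition, a difference between conditions cannot be told apart from a difference between rats. No test was therefore made, and the difference between the controls is the only measure of the spread between livers. In this bulk RNA, fewer cells of a type and less RNA per cell cannot be told apart.

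Uridine phosphorylases split uridine into uracil and ribose 1-phosphate. *Upp2* encodes the enzyme found mainly in liver and *Upp1* the one found in many tissues. Uridine-cytidine kinases, encoded by *Uck1* and *Uck2*, do the opposite and return the nucleosides to the nucleotide pool, and cytidine deaminase, encoded by *Cda*, turns cytidine into uridine. Uracil is then reduced by dihydropyrimidine dehydrogenase (*Dpyd*), the rate-limiting enzyme, opened by dihydropyrimidinase (*Dpys*), and cleaved to beta-alanine by beta-ureidopropionase (*Upb1*). The liver is the main site of this breakdown and also supplies uridine to the blood.

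The promoters of the uridine phosphorylase genes are shown first, because these 2 paralogs had different patterns of expression. The 250 bases before each transcription start are from RefSeq (build GRCr8). That of *Upp2* lies at chr3:63681576-63681825 and that of *Upp1* at chr14:88024420-88024669, both on the plus strand and written 5′ to 3′. Capitals mark matches to the motifs described in the next paragraph.
Upp2: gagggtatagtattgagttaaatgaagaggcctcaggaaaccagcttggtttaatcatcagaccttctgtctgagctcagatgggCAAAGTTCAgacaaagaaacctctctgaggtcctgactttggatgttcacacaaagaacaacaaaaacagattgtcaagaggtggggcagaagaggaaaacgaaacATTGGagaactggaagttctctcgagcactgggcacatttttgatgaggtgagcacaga
Upp1: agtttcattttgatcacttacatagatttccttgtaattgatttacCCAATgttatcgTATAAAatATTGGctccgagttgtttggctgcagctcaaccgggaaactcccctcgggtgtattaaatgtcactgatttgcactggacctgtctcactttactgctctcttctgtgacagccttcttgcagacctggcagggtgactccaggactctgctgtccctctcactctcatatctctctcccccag

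In these windows, 6 motifs were searched on both strands. The *Upp2* window contained CAAAGTTCA, which resembles the core bound by HNF4-type nuclear receptors, between 165 and 157 bases before the start. This motif was added to the search after the sequence had been read, and it was present in 0.281% of 33469 promoters. The *Upp2* window also held 1 CCAAT motif on the reverse strand, which 34.0% of promoters contained. The *Upp1* window held 2 CCAAT motifs, 1 on each strand, with 1 TATAAA between them, and TATAAA was present in 12.9% of promoters. Neither window contained the E-box CACGTG (5.59% of promoters), the D-box TTATGTAA (0.828%), or the forkhead core TGTTTAC (3.21%). Of the 8 genes, 7 had an entry in the promoter table. These matches describe letters only, and binding was not measured.

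Expression is given as TPM, a relative transcript abundance that accounts for transcript length and library size. The tissue was liver by its markers, since all 8 hepatocyte genes examined were detected in every library and *Alb* was between 77519 and 92912 TPM. Aligned sequence, derived from the ratio of FPKM to coverage, was between 4.47 and 5.40 Gb per library. A gene was called when the libraries differed more than 2-fold and the greater TPM value exceeded 2, which is the rule of the study.

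*Upp2* differed more between the livers than any other member. The sevoflurane control had 35.8 TPM and the liver after 6 h of that agent 11.6 TPM. The desflurane control had 4.30 TPM and the liver after 6 h of desflurane 113 TPM. The average coverage of its exons was 64.3, 19.7, 8.05, and 190 reads per base, in the same order. The desflurane library was therefore highest, the desflurane control was lowest, and the sevoflurane library lay between the 2 controls. Neighbors in this order differed 3.16-fold, 3.07-fold, and 2.71-fold. Among all genes, *Upp2* ranked 839th by TPM after 6 h of desflurane and 8151st in the desflurane control.

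The level of *Upp2* was 26.3-fold higher after 6 h of desflurane than in the desflurane control, the difference for which the gene was chosen. It was 3.16-fold higher than in the sevoflurane control and 9.71-fold higher than after 6 h of sevoflurane. After 6 h of sevoflurane, *Upp2* was 3.07-fold lower than in its own control and called down, but it was 2.71-fold higher than in the desflurane control and called up. The controls themselves differed 8.33-fold. Of the 9136 genes above 2 TPM in every library, 3 including *Upp2* differed at least as much between the controls, where the median difference was 1.11-fold. The range over the 4 libraries was 26.3-fold for *Upp2*, and 6 genes including *Upp2* had a range at least as wide. For *Upp2*, this range is the very difference for which the gene was chosen, so its place among all genes is a description only. The median range was 1.34-fold.

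*Upp1*, the paralog, was expressed at a lower level, and its pattern was different. The sevoflurane control had 5.38 TPM and the liver after 6 h of that agent 2.31 TPM. The desflurane control and the liver after 6 h of desflurane had 2.83 and 2.92 TPM. The sevoflurane control stood apart from the other 3 livers, which lay within 1.26-fold of each other. *Upp1* was 2.33-fold lower after 6 h of sevoflurane and called down, at a coverage of 3.90 compared with 9.67 in the control. It was 1.03-fold higher after desflurane and was not called. When the desflurane control was used instead, *Upp1* was 1.23-fold lower after sevoflurane and lost the call. With a pseudocount of 1 TPM, the log2 change was -0.95 and the call was also lost, as it was with the mean of both controls (-0.83) and with overlapping assembled rows added (-0.74).

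Markers of some other cells differed in some of the same comparisons as *Upp2*. The summed TPM of 9 Kupffer cell and macrophage genes was 665 in the sevoflurane control, 426 after sevoflurane, 518 in the desflurane control, and 631 after desflurane. All 9 were lower after 6 h of sevoflurane than in the control, 8 of 9 were higher after 6 h of desflurane than in its control, and 8 of 9 were lower in the desflurane control than in the sevoflurane control. None was at 0 in any liver. *Upp2* differed in the same direction as the sum of these genes in each of these 3 comparisons. Against the control of the other agent, the directions of *Upp2* and of this sum were opposite. The sum was lower after sevoflurane (426 compared with 518) and after desflurane (631 compared with 665). *Upp2* was higher in both of these comparisons, 2.71-fold and 3.16-fold. The sum of 7 lymphocyte genes was 12.3 in the sevoflurane control, 4.02 after sevoflurane, and 7.55 and 7.06 in the desflurane livers. Of these, 6 were lower after sevoflurane. *Cd3d*, a T cell marker, was listed at 0 in the desflurane control. The 6 pancreatic acinar genes summed to 28.9 in the sevoflurane control and to between 0.167 and 0.738 in the others, where *Ctrb1*, *Prss1*, and *Pnlip* were listed at 0. In the order used for the Kupffer cell sum, endothelial genes summed to 149, 144, 144, and 167. Stellate cell and fibroblast genes summed to 270, 286, 289, and 300. Sums of erythroid genes (51.4, 33.3, 34.8, and 19.8) and neutrophil genes (2.37, 2.38, 3.97, and 0.955) were lower after desflurane than in its control. The same held for cholangiocyte genes (11.6, 12.5, 16.9, and 11.0). The part of these cells in the levels of *Upp1* and *Upp2* was not tested. The 8 hepatocyte genes summed to between 134345 and 151263 in all 4 livers, and 6 of them were higher after 6 h of desflurane than in its control.

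The uridine-cytidine kinases were expressed at low levels. The TPM value of *Uck1* was 7.73 in the sevoflurane control, 7.29 after sevoflurane, 6.04 in the desflurane control, and 8.92 after desflurane. *Uck1* was 1.48-fold higher after desflurane than in its own control, compared with 1.28-fold between the controls, and it was not called in any comparison. *Uck2*, the kinase known from proliferating cells, had TPM values of 1.02, 0.474, 0.333, and 1.20 in the same order. Its values were lower after sevoflurane than in its control (2.14-fold) and higher after desflurane than in its control (3.61-fold), but they did not reach the TPM limit. The coverage of *Uck2* was between 0.624 and 2.03 reads per base, and the controls differed 3.05-fold. *Uck1* showed the same order of the 4 livers as *Upp2*, an order found in 495 of 9993 genes with a TPM value higher than 2 in at least 1 library (4.95%). *Uck2* had this order too, but it was below the limit and is not among those genes.

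*Cda* was listed at 0 in all 4 livers. The annotation holds this gene in 2 rows on the minus strand (chr5:156703579-156734541 and chr5:156756578-156781328, rn6), and no assembled transcript overlapped either of them on that strand.

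**Figure D1:**
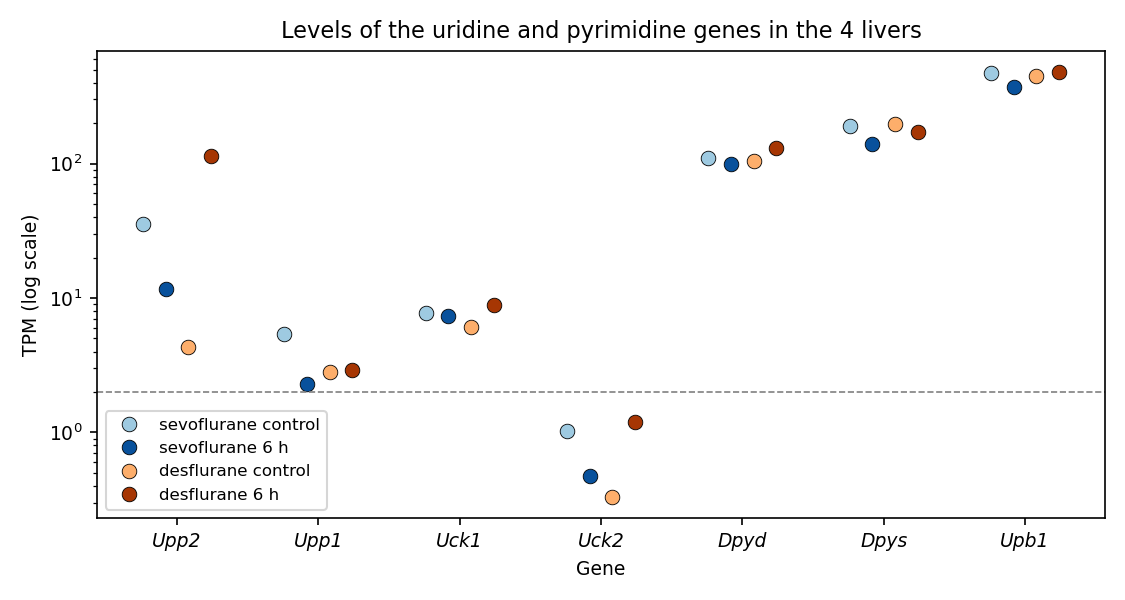
TPM values on a log scale for 7 genes (*Cda* was listed at 0), with 1 point per liver and the TPM limit of 2 as a dashed line. *Upp2* spans from 4.30 in the desflurane control to 113 after 6 h of desflurane, whereas *Dpyd*, *Dpys*, and *Upb1* each stay within 1.40-fold.

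The enzymes that degrade uracil were abundant and varied little. *Upb1* was the most abundant member, with 473 and 370 TPM in the control and 6 h livers of sevoflurane and 445 and 480 TPM in those of desflurane. *Dpys* had 189, 141, 198, and 171 TPM in the same order. *Dpyd* had 111, 98.5, 104, and 130 TPM. None of these genes was called in any comparison, and their coverage was between 167 and 850 reads per base. Their highest and lowest libraries differed 1.30-fold for *Upb1*, 1.40-fold for *Dpys*, and 1.32-fold for *Dpyd*, close to the median range of 1.34-fold over genes.

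After 6 h of sevoflurane, all 3 of these genes were lower than in the control of that agent. The differences were 1.28-fold for *Upb1*, 1.34-fold for *Dpys*, and 1.12-fold for *Dpyd*. After 6 h of desflurane, *Dpyd* was 1.25-fold higher than in its control, *Upb1* was 1.08-fold higher, and *Dpys* was 1.16-fold lower. The controls were closer to each other, and differed 1.06-fold for *Upb1* and *Dpyd* and 1.05-fold for *Dpys*. *Dpys* was lower in both 6 h livers than in both controls.

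In the files (build rn6), *Upp2* lies at chr3:44806106-44846464 on the plus strand and *Upp1* at chr14:89315689-89334056 on the plus strand. *Uck1* lies at chr3:11271874-11277757 and *Uck2* at chr13:85376716-85443976, both on the minus strand. *Dpyd* lies at chr2:221823692-222694627 on the plus strand, and *Dpys* (chr7:78769918-78847941) and *Upb1* (chr20:14167383-14193724) are on the minus strand. The positions include exons and introns, and the TPM values are for the exons of each gene. Not 1 of these rows was overlapped by another annotated gene, so 0 members shared their position with a neighbor.

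After 6 h of sevoflurane, 0 of the 8 members were called up and 2 were called down (*Upp1* and *Upp2*). Only 6 of the 8 were able to pass in any comparison, since *Uck2* and *Cda* did not exceed 2 TPM. Of the 9754 genes able to pass, 2.23% were called up and 3.3% were called down. After 6 h of desflurane, 1 member was called up (*Upp2*, chosen for it) and 0 were called down, beside 2.79% and 1.48% of 9855 genes. With the control of the other agent, *Upp2* was the 1 member called up after sevoflurane (2.52% of genes) and also the 1 member called up after desflurane (2.84% of genes). Between the controls, *Upp2* was the 1 member called down in the desflurane control (1.17% of genes). Between the 6 h livers, *Upp2* was the 1 member called up with desflurane (2.76% of genes). *Upp2*, which was chosen on these libraries, is part of every one of these counts, so they describe the group and support nothing further. The comparisons also share libraries.

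The 7 members with values above 0 were all lower after 6 h of sevoflurane than in its own control. Their median log2 change was -0.42, compared with 0.05 over all genes that passed the TPM limit, of which 56.5% were higher. The member counts and medians here include *Uck2*, which was below that limit in every liver, whereas the values over all genes leave such genes out. After 6 h of desflurane, 6 of the 7 were higher than in its own control, with a median of 0.32 compared with 0.12 over all genes, of which 66.6% were higher. The choice of control changed this picture. Against the desflurane control, 3 members were higher and 4 were lower after sevoflurane (median -0.08, with 58.3% of genes higher), and against the sevoflurane control, 5 were higher and 2 were lower after desflurane (median 0.21, with 64.1% of genes higher). In the desflurane control, 6 of the 7 members were lower than in the sevoflurane control (median -0.36), and 45.2% of genes were higher there. Compared directly, all 7 were higher after 6 h of desflurane than after 6 h of sevoflurane, with a median of 0.38 compared with 0.07 over all genes, of which 58.5% were higher. The counts of direction depended on the scaling where differences were small. Scaling by the median of ratios left 4 of 7 members higher after desflurane than in its own control, with *Upp1* and *Upb1* then slightly lower, and 4 of 7 higher than in the sevoflurane control. With FPKM in place of TPM, these counts were 5 and 1, and 4 members were higher after sevoflurane than in the desflurane control. All 7 were lower after sevoflurane than in its own control, and all 7 were higher after desflurane than after sevoflurane, under each of these scalings.

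**Figure D2:**
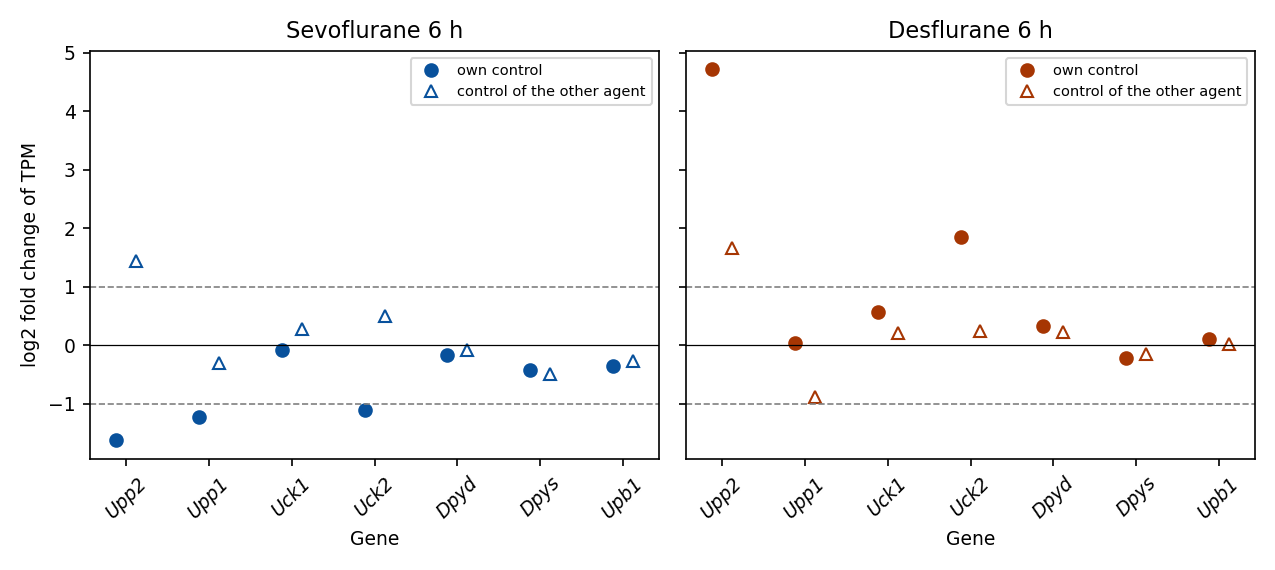
Log2 fold changes of TPM after 6 h of sevoflurane (left) and desflurane (right), against the control of the same agent (circles) and of the other agent (triangles), with dashed lines at the 2-fold limit. *Upp2* changes sign with sevoflurane (-1.62 and 1.44) and is above 0 with desflurane against both controls (4.72 and 1.66).

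Ratios between genes within 1 library do not depend on how the libraries were scaled. *Upp2* exceeded *Upp1* 6.65-fold in the sevoflurane control, 5.05-fold after sevoflurane, 1.52-fold in the desflurane control, and 38.8-fold after desflurane. The liver enzyme was thus the more abundant uridine phosphorylase transcript in every liver, by a narrow margin in the desflurane control. The ratio of *Upp2* to the kinase *Uck1* was 4.63, 1.60, 0.712, and 12.7 in the same order. The phosphorylase transcript was the more abundant of the pair in 3 livers, and the kinase transcript was the more abundant in the desflurane control. The ratio of *Upp2* to *Dpyd* ranged from 0.0413 in the desflurane control to 0.869 after desflurane, where both transcripts reached a similar level.

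The uracil-degrading enzymes kept nearly the same proportions. *Upb1* exceeded *Dpys* by 2.25-fold to 2.81-fold and exceeded *Dpyd* by 3.69-fold to 4.28-fold. *Dpys* exceeded *Dpyd* by 1.31-fold to 1.90-fold. The order of *Upb1*, *Dpys*, and *Dpyd* was the same in all 4 livers. Over the livers, the ratio of *Upb1* to *Dpyd* varied 1.16-fold, whereas the ratio of *Upp2* to *Upb1* varied 24.4-fold.

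**Figure D3:**
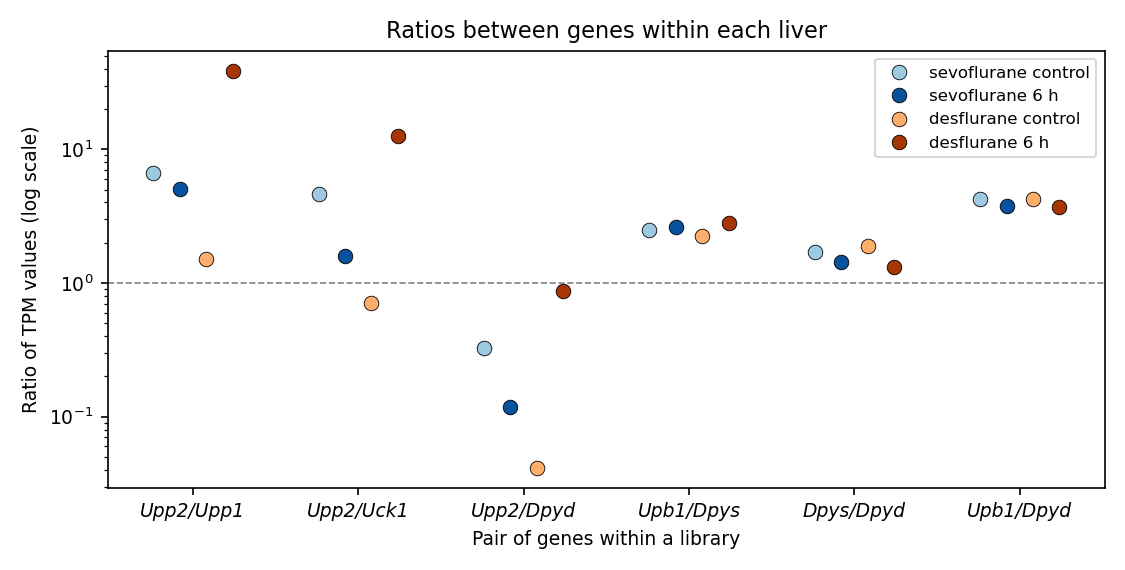
Ratios of TPM values between pairs of genes within each of the 4 livers, on a log scale, with 1 point per liver and equal levels as a dashed line. The 3 ratios with *Upp2* spread over at least 17.8-fold, and the 3 ratios among *Upb1*, *Dpys*, and *Dpyd* over at most 1.45-fold.

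The files also list transcripts that StringTie assembled from the reads under its own identifiers, and these rows give a second reading of the same reads. At *Upp2*, 1 long assembled row covered nearly the whole gene in each library. It began between 95 and 156 bases after the annotated start and ended between 5558 and 5613 bases past the annotated 3′ end. This row had 61.6 and 20.1 TPM in the control and 6 h livers of sevoflurane, and 6.63 and 193 TPM in those of desflurane. These TPM values were 1.54-fold to 1.72-fold higher than those of the annotated row. The differences in TPM between livers were alike, with 29.1-fold for desflurane and a fold change of 0.326 for sevoflurane, each against its own control. The coverage of this row did not follow its TPM values, with 66.8, 13.5, 6.84, and 61.3 reads per base in the same order. By coverage, the desflurane 6 h liver was thus below the sevoflurane control. The 4 ends differed by 55 bases or less. At *Upp1*, the assembled row covered the whole gene in the sevoflurane control and parts of it in the other libraries.

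The other genes of pyrimidine metabolism and 14 genes of purine breakdown and salvage were examined as lists by function. Of these 63 genes, 59 were listed in the files, and *Uprt*, *Nt5c2*, *Urah*, and *Urad* were not analysed here. Sevoflurane gave 2 genes called up and 2 called down among the 59, and desflurane gave 1 called up, the purine gene *Hprt1*, and 0 called down, all against the control of the same agent. The backgrounds are those given for the 8 members.

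Synthesis of pyrimidines from small precursors starts with the enzymes encoded by *Cad* and *Dhodh* and is completed by *Umps*, and the CTP synthases *Ctps1* and *Ctps2* convert UTP to CTP. Of these 5 genes, 4 were higher after sevoflurane than in its control (median log2 change 0.42) and 5 were higher after desflurane (0.24), beside medians of 0.05 and 0.12 over all genes. *Ctps1* was called up with sevoflurane, with TPM values of 3.51 and 8.13 (2.31-fold), and it was 1.17-fold higher with desflurane. Against the desflurane control, *Ctps1* was 1.82-fold higher after sevoflurane and lost the call. *Umps*, the most abundant of the list by its mean, was 14.0 and 20.4 for sevoflurane (1.45-fold) and 16.2 and 19.0 for desflurane. *Ctps2* was the 1 gene of the list that was lower after sevoflurane, at 14.3 and 13.0 TPM (fold change 0.912).

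Among 7 nucleoside transporters, the equilibrative transporter *Slc29a2* was called up with sevoflurane, with TPM values of 2.49 and 5.03. Its 2.02-fold difference was just inside the limit, and the call was lost under median-of-ratios scaling, with FPKM, and with a pseudocount. With desflurane it was 1.90-fold higher (1.87 and 3.54) and was not called. *Slc28a2*, the concentrative transporter that carries uridine and purine nucleosides and the most abundant of the list, was lower after both agents, at 39.1 and 21.0 for sevoflurane and 53.0 and 38.0 for desflurane. *Slc28a1*, the pyrimidine-preferring transporter, was listed at 0 in all 4 livers.

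Genes of nucleotidases and nucleotide kinases were near the background, with a median of 0.03 for sevoflurane and -0.03 for desflurane. *Cmpk2*, a mitochondrial UMP-CMP kinase that is known as an interferon-induced gene, was called down with sevoflurane, from 5.40 to 1.90, and was 3.78 and 2.03 for desflurane. Against the desflurane control, its fold change after sevoflurane was 0.502 and the call was lost. *Nme2*, the most abundant, was between 185 and 197 in all livers. Among 13 genes of thymidine and deoxypyrimidine metabolism, *Samhd1*, a dNTP hydrolase that is also induced by interferon, was called down with sevoflurane, from 13.6 to 5.93, and was 12.6 and 8.72 for desflurane. Against the desflurane control, *Samhd1* was still called down after sevoflurane (fold change 0.473). With sevoflurane, both genes were lower together with the Kupffer cell and lymphocyte markers given above, and the part of these cells was not tested. With desflurane, both had lower values in the 6 h liver, where 8 of 9 Kupffer cell genes and 4 of 7 lymphocyte genes were higher than in the control. In that comparison, 66.6% of all genes that passed the TPM limit were higher. The lymphocyte sum was slightly lower there, at 7.06 compared with 7.55. *Rrm2*, a ribonucleotide reductase subunit of dividing cells, was just outside the limit with sevoflurane (1.99-fold higher, 3.21 and 6.38). *Tymp*, thymidine phosphorylase, which is the thymidine counterpart of the uridine phosphorylases, was the most abundant gene of this list. Its TPM values were 256 and 175 for sevoflurane and 265 and 193 for desflurane, so that both 6 h livers were below both controls.

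Beta-alanine and beta-aminoisobutyrate, the end products of the pathway, are broken down by the enzymes of *Abat*, *Agxt2*, and *Aldh6a1*. None of the 3 genes was called. *Agxt2* was just outside the limit with desflurane, at 85.5 in the control and 169 after 6 h (1.97-fold), and was 130 in both sevoflurane livers. *Aldh6a1*, the most abundant, was between 464 and 531. *Uckl1*, which resembles the uridine kinases, was between 9.49 and 10.8 in all livers.

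Genes that use uridine nucleotides to make activated sugars had a median of -0.34 with sevoflurane and -0.18 with desflurane, and 0 of 7 were called. *Ugp2*, which makes UDP-glucose, was 319 in the sevoflurane control and 169 after sevoflurane, and was 210 and 204 for desflurane. In purine breakdown and salvage, 12 of 14 genes were listed, and *Hprt1*, a purine salvage enzyme, was called up with desflurane. Its TPM values were 24.4 in the desflurane control and 54.2 after desflurane, but 57.1 and 52.5 in the sevoflurane libraries, so that the desflurane control stood apart. *Uox*, urate oxidase, was the most abundant of the list. It was 1.62-fold higher after sevoflurane (634 and 1024) and 1.70-fold higher after desflurane (548 and 934), and both 6 h livers were above both controls.

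**Figure D4:**
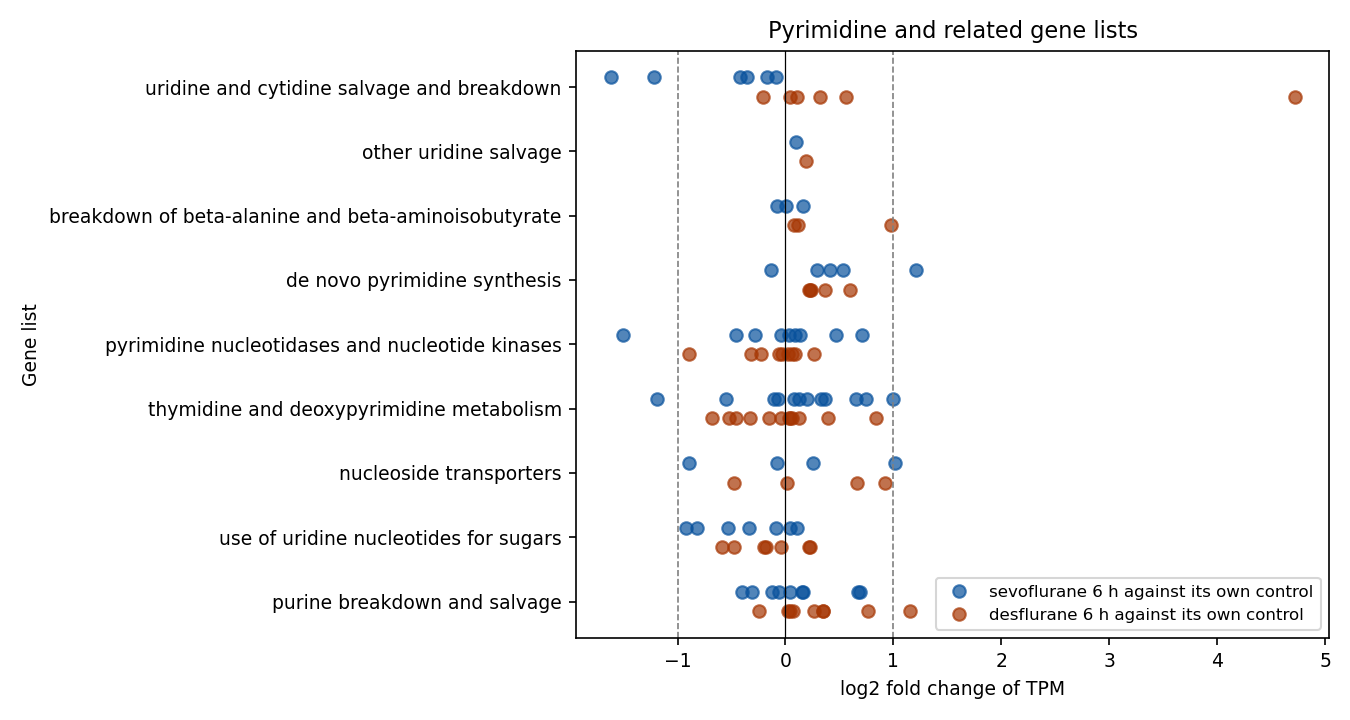
Log2 fold changes of TPM for the genes of 9 lists with a TPM value higher than 2 in at least 1 library, 1 point per gene, after 6 h of sevoflurane (blue) or desflurane (brown) against the control of the same agent, with dashed lines at the 2-fold limit. *Upp2* with desflurane (4.72) lies far outside the others, and the 5 genes of de novo synthesis with desflurane all lie above 0.

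The genes with the profile nearest to *Upp2* over the 4 libraries were *Mmd2*, *Hacl1*, *Egr1*, *RGD1359290*, and *Snrpg*. Nearness was the Euclidean distance between log2(TPM + 1) values after centering on the mean of each gene, and distances were between 1.61 and 1.91 for these genes. With 4 points, such profiles are a description only. *Hacl1*, a peroxisomal enzyme of fatty acid alpha-oxidation, was 101 and 86.5 in the control and 6 h livers of sevoflurane and 61.3 and 358 in those of desflurane. *Egr1*, an immediate early transcription factor, was 24.5, 31.4, 11.6, and 92.0 in the same order. *Snrpg*, a core protein of the spliceosome, was 7.15, 6.70, 2.53, and 15.03, and *RGD1359290* was 38.9, 47.0, 10.4, and 79.0. *Mmd2* was 3.03 in the sevoflurane control and 3.56 after desflurane, and was 0.0902 after sevoflurane and listed at 0 in the desflurane control. All 5 genes were highest after desflurane and lowest in the desflurane control. Against its own control, desflurane gave 5.85-fold for *Hacl1*, 7.96-fold for *Egr1*, 7.59-fold for *RGD1359290*, and 5.95-fold for *Snrpg*. The members were not among the nearest genes. *Uck1* was the closest of those above the TPM limit, at place 745 of 9992, with a distance of 2.98.

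**Figure D5:**
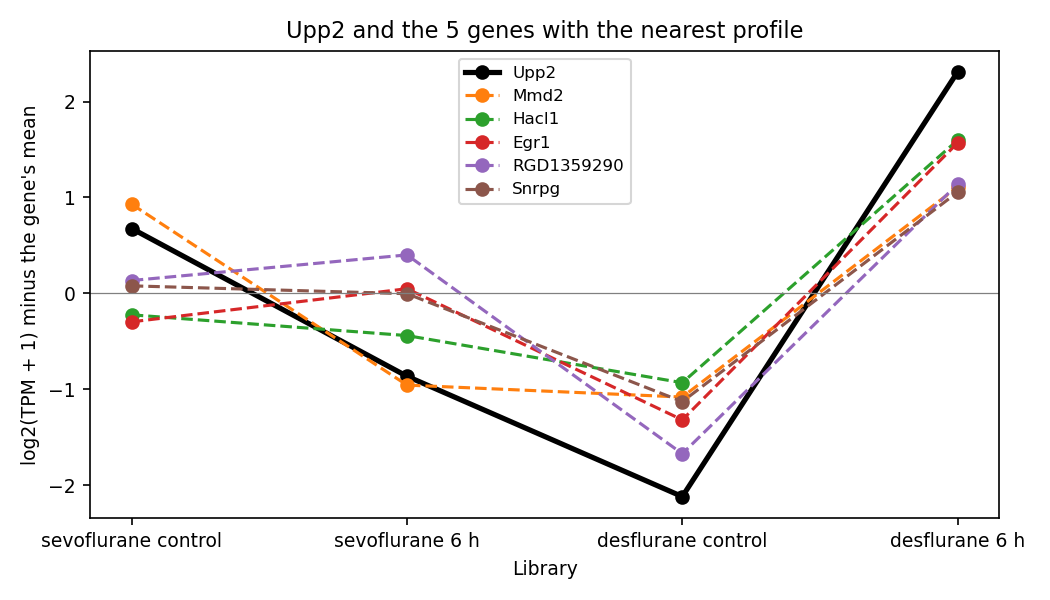
Log2(TPM + 1) values minus the mean of each gene, for *Upp2* (black) and the 5 genes with the nearest profile, in the 4 libraries. All 6 genes are highest after 6 h of desflurane and lowest in the desflurane control, and *Upp2* and *Mmd2* are lower after sevoflurane than in its control, whereas *Egr1* and *RGD1359290* are higher.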

How the data were processed

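According to the methods of the study, the authors used sickle 1.33 to trim the paired-end reads and HISAT2 2.1.0 at its default settings for mapping (build rn6). After sorting in SAMtools 1.10, expression was estimated by StringTie 2.1.2, guided by refGene for rn6. The strand setting of StringTie is not given in the sources used here. The deposited TPM values are a signal scaled so that assembled rows add up to 1000000, with annotated rows on the same scale. The deposited files also give FPKM values, scaled by the authors for library size, and average coverage, a signal that is not scaled. Annotated rows longer than 200 bp were kept and summed by gene ID.

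Members and lists were chosen with earlier results of these data known. Named genes are the 8 members, list genes called against the own control, the most abundant gene of each list, and the 5 genes nearest to *Upp2*. Genes just outside a limit, *Slc28a1*, *Cad*, *Dhodh*, *Ctps2*, *Abat*, and markers were named after their values were seen. No test was made, since each condition has 1 library. Read counts were not used here, and coverage is given as the depth. Alternatives covered the limits, a pseudocount, scaling, FPKM, rows, assembled rows, and the control. The planned comparison of the proteins was not made. Calculations used Python 3.11.15, numpy 2.4.6, pandas 2.3.3, and matplotlib 3.10.9, and simulated tables were used to check the calls.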

Additional observations from a re-analysis of the deposited data

Results flagged for a closer look

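For 6 of the 7 members with values above 0, the direction after 6 h of sevoflurane was opposite to that after 6 h of desflurane, each against its own control. The share of all genes with opposite directions was not computed, so this count has no background beside it. It includes *Upp2*, which was chosen for its higher level after desflurane. Each direction rests on 1 liver and its control, so the difference between agents was not tested. The log2 change with desflurane minus that with sevoflurane was 6.34 for *Upp2*, 2.95 for *Uck2*, 1.27 for *Upp1*, 0.65 for *Uck1*, 0.49 for *Dpyd*, and 0.46 for *Upb1*. The difference between the 2 controls enters each of these values in full. It was -3.06 on the log2 scale for *Upp2*, -1.61 for *Uck2*, and -0.93 for *Upp1* (desflurane control relative to sevoflurane control), and the direct difference between the 6 h livers was 3.28, 1.34, and 0.34 for the same genes. The direction of *Upp1* and *Upb1* with desflurane changed under median-of-ratios scaling, where their log2 changes were -0.08 and -0.02.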

How the results depend on the processing

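Of 540 values recomputed under alternatives, 501 kept their call, stayed within 1.5-fold for counts, or, for medians, moved by less than the difference between the controls (0.36). The 501 include values that were not called in either setting, and such values could change sign. For medians, the limit of 0.36 is wide beside the medians themselves. The median of -0.42 with sevoflurane counted as kept at -0.08 against the other control. With desflurane against the sevoflurane control, the median of 0.21 counted as kept at -0.05 with FPKM. Dropping the length filter left all 56 values in the same class, as did keeping only the row with the highest mean TPM. Each expressed member has 1 annotated row, the shortest of which spans 5884 bp. These alternatives therefore could not change the value of any member, and the kept classes of the members say nothing about stability. The higher level of *Upp2* with desflurane kept its call under all 12 alternatives, with log2 changes between 1.66 and 4.86. *Upp2* was chosen for this difference, so the kept call is a description only. Alternatives that changed only a limit left its log2 change at 4.72. With sevoflurane, the log2 change of *Upp2* was -0.78 and not called with the mean of both controls, and was reversed to 1.44 against the desflurane control. The number of members called with sevoflurane was 1 with a pseudocount, 0 with the mean of both controls, and 1 with the other control. Without the TPM limit, 2 members were called with desflurane, 2 between the controls, and 2 between the 6 h livers, and 8 and 4 list genes were called with sevoflurane and desflurane. With a limit of 1.5-fold, 2 members were called between the controls and 2 with desflurane against the sevoflurane control, and 13 and 10 list genes were called. FPKM gave 2 members in each of these 2 member comparisons. With assembled rows added, which counts some reads again, 2 members were called between the controls and 2 between the 6 h livers, and with sevoflurane *Uck2* was called down in place of *Upp1*. Median-of-ratios scaling gave 2 list genes with desflurane. The share of all genes called was not computed under the alternatives, so these counts have no background beside them. The longest assembled row in place of the annotated one, an alternative chosen after seeing the data, gave 3 members with desflurane (*Upp2* and *Uck2* up, *Upb1* down). With sevoflurane it gave *Upp2* down but *Upb1* up (log2 change 1.46, against -0.36 for the annotated row), with *Uck2* at 0.08 and *Upp1* no longer called (-0.995). The assembled rows of *Upb1*, *Uck2*, and *Upp1* covered different stretches in the libraries compared, so these changes set unlike pieces against each other. Median-of-ratios scaling moved the median of all genes by -0.13 on the log2 scale with desflurane, and FPKM moved it by -0.18 between the controls. Without read counts, low values such as those of *Uck2*, with a coverage near 1, have no interval. No paired analysis was possible because, with 1 library a group, the groups share fewer than 2 replicate numbers, and a model with the agent as a block was not run.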

Other observations

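The assembled rows were split at some members. *Upb1* was assembled in 2 pieces in every library. The piece at the 3′ end had 491 and 385 TPM in the control and 6 h livers of sevoflurane and 507 and 539 TPM in those of desflurane, close to the annotated row. The piece at the 5′ end had values of 100.5, 276, 223, and 111, with the highest in the sevoflurane 6 h liver, where the other piece was lowest. Its inner boundary differed between livers, at 14178736, 14180608, 14180194, and 14178736 in the same order. The lower values came with the longer piece, so these values do not compare the same stretch of the gene. *Dpyd* was assembled in 1 piece in the desflurane control and in 2 pieces in the other libraries. The gene spans 870936 bp.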
